A study of Mus musculus with 8 samples.

Results

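The 10 genes described here encode transcription factors linked to T cell memory, residency and effector function: Eomes, Tcf7, Lef1, Bach2, Id2, Id3, Runx3, Prdm1, Zfp683 and Bhlhe40. They were chosen by symbol, with earlier results of these data known. Each had exactly 1 row among the 32285 gene features of the 4 RNA libraries. The cells were conventional CD4 T cells of mice with experimental autoimmune encephalomyelitis (EAE), an induced autoimmune disease of the brain and spinal cord used as a model of multiple sclerosis. All 4 groups came from Foxp3-Cre-YFP mice, in which regulatory T cells carry a yellow fluorescent protein, and were sorted as CD44+, Foxp3-YFP-, TCRβ+ and CD11b- cells. The groups, named by tissue and day of EAE, were brain with its meninges removed at day 14 (BR14) and day 50 (BR50) and spinal cord at day 14 (SC14) and day 50 (SC50). Each group was 1 library of single-cell RNA read together with DNA-tagged antibodies to 3 surface proteins: CD69, CXCR6 (a chemokine receptor) and P2X7 (a receptor for extracellular ATP). Every difference below is therefore between single libraries, with no replicate check and no p-value, and the labels do not say how many mice a library holds or their age.

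T-box, TCF/LEF, BACH, ID, RUNX and related factors steer an activated T cell towards a long-lived state that can divide again, towards effector function, or towards residence in a tissue. Tcf7 (encoding TCF-1) and Lef1 bind the same DNA sites and maintain stem-like and central memory cells, and Bach2 represses effector genes. Id3 and Id2 block E proteins, and Id3 marks memory-prone cells while Id2 marks effector cells. Runx3, Prdm1 (Blimp-1), Zfp683 (Hobit) and Bhlhe40 are tied to effector or resident programmes, and Eomes, a T-box factor related to T-bet, drives cytotoxic and memory genes.

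Kept cells, those in which 500 or more genes were seen and mitochondrial genes gave no more than 10% of molecules (UMIs), numbered 10313 in BR14, 348 in BR50, 9270 in SC14 and 1620 in SC50. They held 1177903 to 50710551 UMIs per library, with a median of 3014.5 to 4921 per cell, and the day 50 brain library was the shallowest and smallest. At most 33 barcodes were shared by 2 libraries, never over 0.575% of the smaller one. At least 1 of 8 T cell markers (Cd3d, Cd3e, Cd3g, Trac, Trbc1, Trbc2, Cd4 and Cd44) was found in 99.97% to 100% of cells. Cd4 itself was at 147, 115, 233 and 112 counts per 1000000 UMIs in the order BR14, BR50, SC14 and SC50. At least 1 of the 2 CD8 genes was found in 1.44% to 3.20% of cells. Of these, Cd8a had 1, 0, 8 and 0 UMIs and Cd8b1 251, 5, 328 and 30 in the order BR14, BR50, SC14 and SC50. The natural killer and innate lymphoid list was found in 1.72% to 5.36% of cells and summed to 7.11 to 12.7 counts per 1000000 UMIs (CPM); Ncr1, Klra8 and Klra4 were at 0 in all 4 libraries, and Klre1 and Fcer1g were detected in each. Markers of gamma-delta T cells summed to 8.95 and 12.7 CPM in BR14 and BR50 and to 6.61 and 22.5 CPM in spinal cord. Of the 9 dendritic cell and macrophage markers, which summed to 169 to 255 CPM with most of it from Cst3, the antigen presentation genes Cd74, H2-Aa and H2-Ab1 were at 10.0, 0.571 and 3.07 CPM in BR14 and at 53.5, 18.7 and 23.8 CPM in BR50. In spinal cord they were at 9.74, 1.03 and 3.17 CPM, then 7.24, 0.823 and 2.30 CPM. Itgax, Lyz2, Csf1r and Adgre1 were at 0 in BR50. Cycling genes moved with time: the list summed to 491 and 255 CPM in brain and to 355 and 132 CPM in spinal cord. No cell type that should lack these factors was present, so the share of detections given by free RNA is unknown.

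On GRCm38.p6, Eomes lies at chr9:118478186-118486132, Tcf7 at chr11:52246527-52283383, Lef1 at chr3:131110297-131224357, Bach2 at chr4:32238413-32586109 and Id2 at chr12:25093799-25096092. Id3 lies at chr4:136143822-136145392, Runx3 at chr4:135120645-135177990, Zfp683 at chr4:134051195-134058941, Prdm1 at chr10:44437174-44528558 and Bhlhe40 at chr6:108660629-108666925. These RefSeq spans cover the whole gene, and the counts are per gene, with no exon resolved. RefSeq lists Zfp683 as a pseudogene on this build and the other factors as protein coding. Levels are UMIs of a gene per 1000000 UMIs of the library (CPM), with exact Poisson 95% intervals that cover counting error only. Shares are percentages of cells with at least 1 UMI of the gene after each cell was thinned to 2000 UMIs, with exact Clopper-Pearson 95% intervals. Thinning left 9150, 250, 9128 and 1493 cells in the order BR14, BR50, SC14 and SC50, and set aside 1163, 98, 142 and 127 shallower ones. A ratio between libraries is given on the log2 scale relative to the median of all compared genes, which was -0.14 for BR50 against BR14, -0.33 for SC50 against SC14, 0.20 for SC14 against BR14 and 0.04 for SC50 against BR50. The call of higher or lower needs a relative ratio of 1.5-fold or more with an interval that excludes 1.

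**Figure D1:**
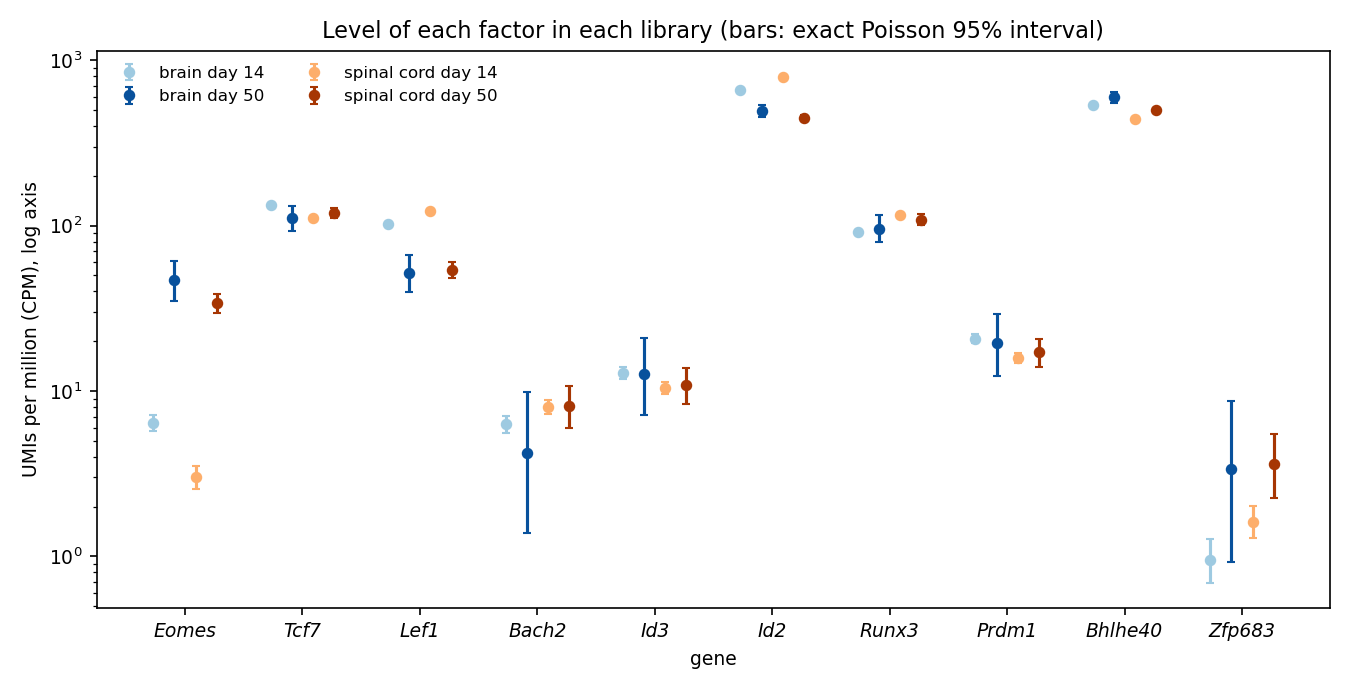
Level of each factor in CPM on a log axis in the 4 libraries, with exact Poisson 95% intervals as bars. Eomes lies at 3.02 to 6.43 CPM in the day 14 libraries and at 33.9 to 46.7 CPM in the day 50 libraries, while Lef1 and Id2 lie lower at day 50 in both tissues.

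Eomes was the factor that differed most with time. Its level was 6.43 CPM in BR14 (95% interval 5.73 to 7.2) and 46.7 CPM at day 50 (35.2 to 60.8). In spinal cord it was 3.02 CPM at day 14 (2.56 to 3.53) and 33.9 CPM at day 50 (29.4 to 38.8). Both day 50 libraries lay above both day 14 libraries, and their intervals did not overlap. The relative log2 ratio of day 50 to day 14 was 3.0 in brain (2.56 to 3.42) and 3.82 in spinal cord (3.51 to 4.13). These values rest on 55 UMIs in BR50 and 206 in SC50, and over the alternatives tried the ratio ran from 2.86 to 3.21 in brain and from 3.49 to 4.27 in spinal cord. Without cells holding a cycling gene it was 3.16 in brain and 3.90 in spinal cord.

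Eomes was detected in a larger share of cells at day 50. In the summed levels, fewer cells of a type and less RNA per cell cannot be told apart. The shares are given beside them, although a share of detection also depends on RNA per cell. The share of cells with Eomes was 1.16% in BR14 (0.949 to 1.40) and 6.40% in BR50 (3.70 to 10.2). It was 0.526% in SC14 (0.388 to 0.697) and 7.10% in SC50 (5.85 to 8.52). Cells that held Eomes at full depth carried 1.41 and 1.77 Eomes UMIs on average in BR14 and BR50, and 1.35 and 1.45 in spinal cord. A mean over positive cells cannot lie below 1 UMI and changes little while detection is this sparse. These values therefore do not tell more positive cells from more RNA per cell. Between tissues, Eomes was lower in SC14 than in BR14, with a relative log2 ratio of -1.29 (-1.58 to -1.01). At day 50 the same ratio was -0.50 (-0.93 to -0.04), below the fold needed for a call; with a stricter cell filter (1000 genes, 5% mitochondrial UMIs) it was -0.73 and passed.

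Zfp683, the factor known as Hobit in resident lymphocytes, was called higher at day 50 in both tissues but from few molecules. It had 45 UMIs in BR14, 4 in BR50, 82 in SC14 and 22 in SC50. The levels were 0.952 CPM (0.694 to 1.27), 3.4 CPM (0.925 to 8.69), 1.62 CPM (1.29 to 2.01) and 3.62 CPM (2.27 to 5.48) in that order. In spinal cord the relative log2 ratio was 1.49 (0.74 to 2.19). In brain it was 1.97 (0.04 to 3.43) on 4 UMIs from 4 cells, and the call was lost without centring (1.83), with the stricter cell filter (1.98), with cells thinned before summing (2.18) and without the 2 cells richest in the gene (1.51).

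Lef1, a partner of TCF-1 in naive and central memory cells, was called lower at day 50 in both tissues. Its level was 103 CPM (99.8 to 106) and 51.8 CPM (39.6 to 66.5) in brain, and 123 CPM (120 to 126) and 54.0 CPM (48.3 to 60.1) in spinal cord. The 2 day 50 libraries overlapped each other and lay below both day 14 libraries. The relative log2 ratio was -0.85 in each tissue, from -1.24 to -0.49 in brain and from -1.02 to -0.69 in spinal cord. In brain the value without the 2 cells richest in Lef1 was -0.57, short of the threshold, and at a fold threshold of 2 neither tissue's ratio passed. The share of cells with Lef1 was 18.5% and 8.40% in brain and 21.7% and 11.2% in spinal cord.

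Tcf7, which encodes TCF-1, did not share the difference seen for Lef1. Its level was 133 CPM in BR14, 111 CPM in BR50, 111 CPM in SC14 and 119 CPM in SC50. The relative log2 ratio of day 50 to day 14 was -0.12 in brain (-0.38 to 0.13) and 0.44 in spinal cord (0.32 to 0.55), neither of them called. The share of cells with Tcf7 was 21.2%, 17.2%, 18.2% and 21.3% in the same library order, and the interval of SC14 (17.4 to 19.0) lay below those of BR14 (20.3 to 22.0) and SC50 (19.2 to 23.5).

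Bach2 and Id3, which accompany the memory state, were called in no comparison. Bach2 was at 6.28, 4.24, 7.99 and 8.06 CPM in the order BR14, BR50, SC14 and SC50, with 5 UMIs in the second of these. Id3 was at 12.9, 12.7, 10.4 and 10.9 CPM in the same order. The day 50 intervals of each gene overlapped the day 14 interval of the same tissue.

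Id2, the ID protein of effector and resident cells, was at 664 CPM (656 to 671) in BR14 and 495 CPM (456 to 537) at day 50. In spinal cord it was at 795 CPM (787 to 803) and 447 CPM (430 to 464). The spinal cord value fell to 0.562 of its day 14 level (0.540 to 0.584), while the median gene fell as well. Relative to that median the log2 ratio was -0.50 (-0.56 to -0.44) and was not called; without centring it was -0.83 and was called lower. In brain the relative value was -0.29 (-0.41 to -0.17). The share of cells with Id2 was 61.1% and 54.4% in brain and 68.8% and 46.7% in spinal cord.

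Runx3, Prdm1 and Bhlhe40 were called in no comparison. Runx3, a RUNX factor of cytotoxic and resident cells, ranged from 91.7 to 116 CPM over the 4 libraries. Prdm1, the repressor Blimp-1 of terminal differentiation, ranged from 15.9 to 20.7 CPM. Bhlhe40, a basic helix-loop-helix factor needed for cytokine output and for mitochondrial fitness of resident cells, was at 539 and 597 CPM in BR14 and BR50 and at 443 and 499 CPM in spinal cord. Its relative log2 ratio with time was 0.29 in brain (0.18 to 0.39) and 0.51 in spinal cord (0.45 to 0.56), neither of them called. The spinal cord value passed the threshold with no minimum beyond 1 UMI (0.62), and both passed without the 2 cells richest in the gene (0.60 in brain and 0.62 in spinal cord). Prdm1 in SC14 against BR14 gave -0.58 (-0.72 to -0.44), just short of 1.5-fold, and was called lower under 4 alternatives. In spinal cord, Prdm1 was called higher at day 50 when cells were thinned before summing (0.72).

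**Figure D2:**
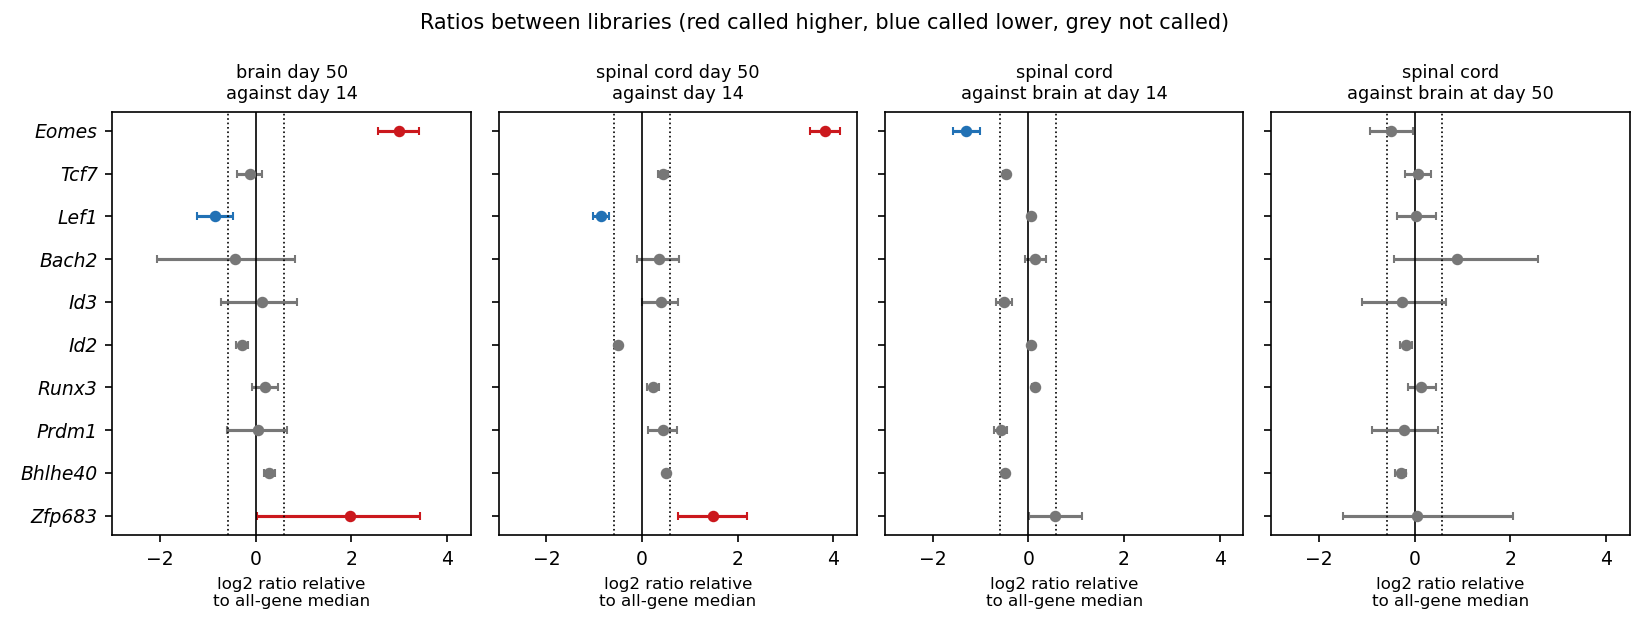
Relative log2 ratio of each factor in the 4 comparisons between libraries with exact 95% intervals; dotted lines mark 1.5-fold, and red, blue and grey points are called higher, called lower and not called. Eomes stands at 3.0 and 3.82 in the comparisons with time, and no factor is called between the tissues at day 50.

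In all, 2 of 10 factors were called higher and 1 lower at day 50 in brain, where 7.33% of 12802 compared genes were called higher and 3.31% lower. Spinal cord gave 2 higher and 1 lower against 13% and 10.4% of 13175 genes. With 10 factors, the spinal cord counts lie near the all-gene shares and are not read as a result. The called genes were the same 3 in both tissues, Eomes and Zfp683 higher and Lef1 lower. In brain the Zfp683 call rests on 4 UMIs and was lost under several alternatives, as given above. The 2 comparisons share no library, but whether the 2 tissues came from the same mice is not known here. Without centring, spinal cord gave 2 higher and 2 lower, with Id2 as the added gene. Between tissues at day 14, 0 factors were called higher and 1 lower, Eomes, where 6.4% of 13868 genes were higher and 6.24% lower. At day 50, 0 of 10 factors were called in either direction, beside 2.24% of 10309 genes higher and 4.76% lower in spinal cord. The median relative log2 ratio over the 10 factors was 0.09, 0.41, -0.21 and -0.08 in the 4 comparisons, beside 0 over all compared genes by construction. The comparisons with time and those between tissues share libraries with one another.

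The genome sequence upstream of Eomes is shown because its transcript differed most, and those of Id2 and Id3 because these near relatives were detected together less often than their shares imply, as described further on. Each window lies wholly upstream of the annotated gene, from the RefSeq table on GRCm38.p6, and 8 of the 10 factors had a window in that table. Capitals mark CCAAT boxes on either strand and the TATAA core.
Eomes, chr9:118477939-118478183, plus strand: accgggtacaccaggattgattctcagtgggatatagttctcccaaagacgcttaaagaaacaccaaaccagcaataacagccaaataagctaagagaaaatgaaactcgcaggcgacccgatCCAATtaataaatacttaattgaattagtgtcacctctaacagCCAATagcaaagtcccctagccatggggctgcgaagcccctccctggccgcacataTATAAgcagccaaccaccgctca
Id2, chr12:25096098-25096342, minus strand: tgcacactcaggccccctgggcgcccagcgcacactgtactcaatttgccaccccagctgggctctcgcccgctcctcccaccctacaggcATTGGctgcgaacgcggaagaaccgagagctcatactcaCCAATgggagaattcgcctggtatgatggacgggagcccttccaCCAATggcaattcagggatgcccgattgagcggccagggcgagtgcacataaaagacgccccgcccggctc
Id3, chr4:136143572-136143816, plus strand: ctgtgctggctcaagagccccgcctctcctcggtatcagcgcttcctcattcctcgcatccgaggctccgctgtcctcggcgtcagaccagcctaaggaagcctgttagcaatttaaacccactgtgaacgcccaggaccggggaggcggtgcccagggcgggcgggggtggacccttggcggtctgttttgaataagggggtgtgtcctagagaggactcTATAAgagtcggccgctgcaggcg
TATAA occurred in 22.6% of all 32851 windows of this length and CCAAT in 33.5%; the Eomes window held 1 TATAA and 2 CCAAT, the Id2 window 0 and 3, and the Id3 window 1 and 0. A search on both strands for TGTGGT (RUNX), CTTTGA (TCF and LEF), CACGTG (bHLH), GGTGTGA (T-box) and TGANTCA (AP-1 and BACH), which 13.9%, 13.6%, 5.85%, 3.27% and 6.66% of windows held, found none of these letters in the 3 windows; TATAA and CCAAT were added after that search. The motifs do not overlap one another in these windows, and a match or its lack is a description of letters only.

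Which factors were detected in the same cells was read from the thinned cells of each library. For each of the 45 pairs, the share with the second gene was compared between cells with and without the first. A pair counts in a library where at least 5 cells with both were expected; it is called there where the odds differ by at least 1.5-fold and the 2 share intervals do not overlap. Over 109 such values, 9 were called together and 12 apart. With genes other than the 10 factors as partners, 1.23% and 1.21% of values were called so. These pooled shares hide a spread between factors. For Tcf7 they were 3.82% and 4.8% in BR14 and 2.65% and 3.45% in SC14, while for Runx3 they were 0.326% and 0.276% in BR14. Over libraries, 5 pairs kept 1 sign in each library that counted, with a call for together in at least 1. Another 5 did so for apart, 26 did neither and 9 had too few cells. No share over other genes was worked out for this rule over libraries.

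Tcf7 was the centre of the pairs found together. Of brain cells at day 14, 24.0% held Lef1 where Tcf7 was detected and 17.0% where it was not (log2 odds ratio 0.62). In spinal cord the corresponding log2 odds were 0.54 at day 14 and 0.52 at day 50, of the same sign but under the threshold. Bach2 was in 2.12% of cells with and 1.12% without Tcf7 in BR14, and in 2.95% and 1.37% in SC14. Id3 was in 4.13% of cells with and 2.0% without Tcf7 in BR14 and in 3.80% and 1.93% in SC14, with log2 odds of 1.08 and 1.01. The same pair had log2 odds of 0.72 in SC50, on 9 cells with both, and was not called there. Lef1 and Id3 were together in SC14 (0.78). Of the 6 pairs among Tcf7, Lef1, Bach2 and Id3, 4 were thus found together by the rule over libraries. That rule needs a call in only 1 library, and no share over other genes stands beside this count. Lef1 and Bach2 were not called (0.67 in BR14 and 0.03 in SC14), and Bach2 and Id3 had too few cells. Tcf7 and Lef1 lost the call without the 10% of cells with most UMIs, and Lef1 and Id3 lost it at 1000 UMIs per cell.

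Tcf7 also stood in 3 of the 5 pairs found apart. Id2 was in 48.8% of brain cells with Tcf7 and 64.4% without at day 14, and in 25.6% and 60.4% at day 50. In spinal cord the shares were 55.5% and 71.8% at day 14 and 42.1% and 47.9% at day 50. The log2 odds were -0.92, -2.10, -1.02 and -0.34, and the day 50 spinal cord value was the one not called. The BR50 value rests on 43 cells with Tcf7, of which 11 held Id2. Mantel-Haenszel values of this pair over 10 strata of cell depth were -1.08, -0.77, -1.23 and -0.58 in the order BR14, BR50, SC14 and SC50. For Bhlhe40 the log2 odds with Tcf7 were -0.86, -0.92, -0.90 and -0.39 in the order BR14, BR50, SC14 and SC50, called in both day 14 libraries. Prdm1 was in 2.43% of cells with and 4.10% without Tcf7 in BR14 (-0.77), and this call was lost in a Mantel-Haenszel estimate over 10 strata of cell depth (-0.57) and at 1000 UMIs per cell. These pairs were not exclusive: 946 brain cells at day 14 held both Tcf7 and Id2, where 1183 were expected from the 2 shares.

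Id2 and Id3, inhibitors of the same E proteins, were apart. Id3 was in 1.77% of cells with Id2 and 3.37% of cells without it in SC14 (log2 odds -0.96). The values were -0.48 in BR14 and -1.48 in SC50, of the same sign and not called; BR50 had too few cells. Bach2 and Id2 differed in sign between libraries, at -0.85 in BR14, -0.75 in SC14 and 2.0 in SC50, where 19 cells held Bach2. Mantel-Haenszel values of this pair over 10 strata of cell depth were -1.20, -1.02 and 0.61 in the same order. Id2 and Bhlhe40 had log2 odds of 0.57, 0.23, 0.49 and 0.53 in the order BR14, BR50, SC14 and SC50, none called. Over 10 strata of cell depth the Mantel-Haenszel values of this pair were 0.91, 0.60, 1.09 and 0.62.

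Eomes showed no steady relation to Tcf7 or Lef1. Tcf7 was in 18.9% of Eomes cells and 21.2% of other cells in BR14, in 29.2% and 18.1% in SC14, and in 12.3% and 22.0% in SC50. None of these was called, and the sign changed. For Lef1 the log2 odds were 0.54, 0.30 and -0.23 in the same libraries, also not called. Runx3, which acts with T-box factors in cytotoxic cells, was in 30.2% of Eomes cells and 18.2% of other cells in SC50 (log2 odds 0.97, called), with 0.47 in BR14 and 0.13 in SC14. This pair lost its call at 1000 UMIs per cell and without the 10% of cells with most UMIs. Id2 was less frequent in Eomes cells in spinal cord, at 37.5% against 69.0% at day 14 and 34.0% against 47.7% at day 50. It was not called in brain, where the shares were 56.6% against 61.1% at day 14 and 62.5% against 53.8% at day 50. Bhlhe40 was in 33.3% of Eomes cells and 51.5% of others in SC14 (-1.06), and the sign was the same in the other 3 libraries (-0.39, -1.16 and -0.35), none of them called. Over 10 strata of cell depth the Mantel-Haenszel values were -0.23, -0.03, -1.17 and 0.10 in the order BR14, BR50, SC14 and SC50, so the last turned, and at 1000 UMIs per cell the pair was no longer called. No cell held both Eomes and Zfp683 in any library, where fewer than 1 was expected in each.

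**Figure D3:**
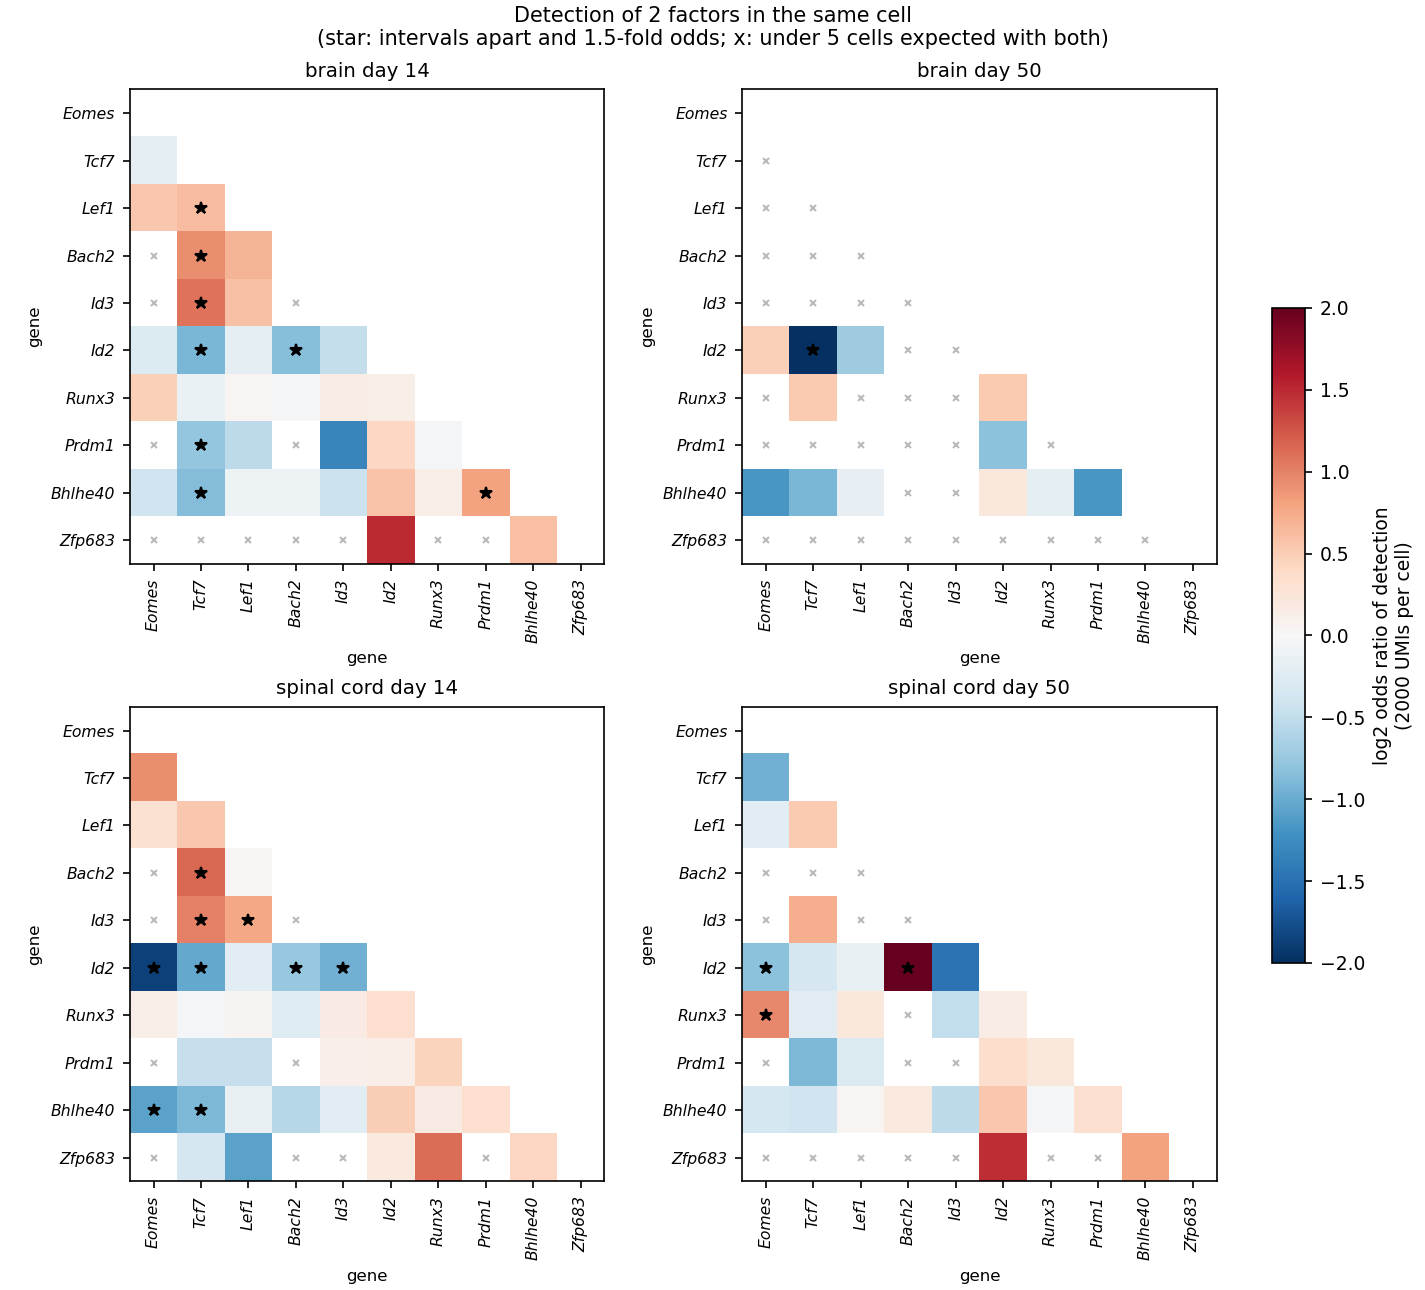
Log2 odds ratio of detecting 2 factors in the same cell in each library, at 2000 UMIs per cell; red is together, blue apart, a star a call and a cross under 5 cells expected with both. Tcf7 is red against Lef1, Bach2 and Id3 and blue against Id2 and Bhlhe40 in both day 14 libraries, while BR50 allows 12 of 45 pairs.

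Counts of factors per cell show how sparse these transcripts are. At day 14, 38.8% of brain cells and 39.0% of spinal cord cells held exactly 2 of the 10 factors, and 8.26% and 6.73% held none. In SC50, 13.7% held none (12.0 to 15.5). At least 1 of Tcf7, Lef1, Bach2 and Id3 together with at least 1 of Id2, Prdm1, Bhlhe40 and Runx3 was found in 28.4% of brain cells at day 14, 18% at day 50, 30.0% of spinal cord cells at day 14 and 23.2% at day 50. Factors of both kinds were thus met in the same cell, although 5 pairs were found apart. Id2 alone was in 46.7% to 68.8% of cells and Bhlhe40 in 49.0% to 55.8% over the libraries. The share expected from such single shares was not worked out. These values therefore do not show whether both kinds met more or less often than that.

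What else Eomes cells carried was described by a fixed ranking over the libraries with at least 50 such cells, BR14 and SC50, among 3357 genes. Gzmk, encoding granzyme K, was most like Eomes: it was in 63.2% of Eomes cells (53.3 to 72.4) and 5.92% of others in BR14, and in 84.0% (75.6 to 90.4) and 15.9% in SC50. Ccl5, a chemokine of effector memory cells, was in 86.8% against 29.5% and 97.2% against 45.6% in the same libraries. Sh2d1a, encoding the adaptor SAP, was in 74.5% against 26.8% and 64.2% against 28.3%. The 2 libraries not used in the ranking gave the same direction: Gzmk was in 14 of 16 Eomes cells in BR50, or 87.5% against 11.5%, and in 60.4% against 3.29% in SC14. Least like Eomes were Rgs10 (19.8% against 43.4% in BR14), Ly6a (57.5% against 79.7%) and Il18r1 (11.3% against 33.2%).

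The Eomes cells carried T cell transcripts. Trac, the constant region of the T cell receptor alpha chain, was in 86.8% of them in BR14 and in 88.7% in SC50, beside 80.2% and 78.1% of other cells. Cd4 was in 27.4%, 0%, 25.0% and 17.9% of Eomes cells in the order BR14, BR50, SC14 and SC50, and in 24.4%, 20.1%, 36.4% and 20.2% of others. Markers of other lymphocytes were too rare in these libraries for a comparison. Cd8b1 was in 3, 0, 1 and 1 of the 106, 16, 48 and 106 Eomes cells and in 0.973%, 0.427%, 1.09% and 0.577% of others. Klrb1c and Klre1 were in 0 Eomes cells, and in at most 1.09% and 0.577% of others. Tyrobp was in 1, 0, 1 and 1 Eomes cells, and the gamma-delta genes Trdc and Tcrg-C1 in 1 and 0 in all, beside at most 0.721% and 1.3% of others. Cd8a, Foxp3 and Ncr1 were at or near 0 in the whole libraries, so nothing was read from their lack in Eomes cells. Cd74 and H2-Ab1, which were higher in BR50, were in 0 Eomes cells, and H2-Aa was in 1, in BR50. Tbx21, which encodes the related factor T-bet, was in 1, 0, 1 and 0 Eomes cells and in 2.70%, 1.71%, 4.06% and 2.60% of others. Il17a was in 1, 0, 0 and 1 Eomes cells, beside 6.80%, 9.83%, 4.64% and 2.45% of others, and Ifng was in 29.2%, 37.5%, 29.2% and 22.6% of Eomes cells and 28.3%, 34.2%, 27.5% and 29.1% of others. The Ifng intervals of cells with and without Eomes overlapped in each library.

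**Figure D4:**
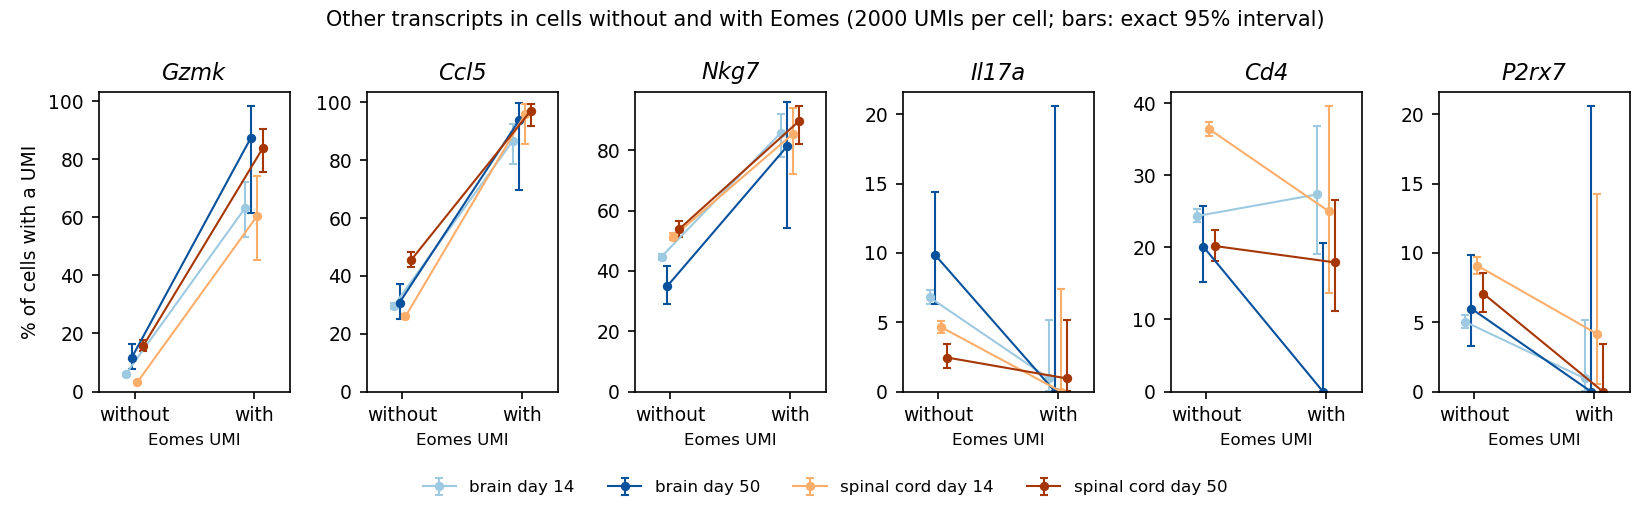
Share of thinned cells with 6 other transcripts, in cells without and with an Eomes UMI, in each library with exact 95% intervals. Gzmk rises from 3.29% to 15.9% without Eomes to 60.4% to 87.5% with it, and P2rx7 is found in 3 Eomes cells in all.

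By the same ranking, Tcf7 was most like Il7r, the interleukin-7 receptor, which was in 65.2% of cells with and 43.1% without Tcf7 in BR14, then Atp1b3 and S1pr1, the exit receptor. It was least like Nkg7 (25.5% against 50.5%), Ctsw and Dusp2. Id3 was most like Klf2, Ifi27l2a and Il7r and least like Cxcr6, Ckb and Ctsw, and Id2 was most like Cxcr6, Nkg7 and S100a4 and least like Gna13, Klf2 and Socs3. Cxcr6 was in 48.5% of cells with and 29.9% without Id2 in BR14, while it was in 27.2% of cells with and 41.6% without Id3. Bhlhe40 was most like Nfkbia, Furin and S100a4 and least like Ifi27l2a, Clec2d and Klf2. The ranking left out the 10 factors and goes by the smallest difference over libraries, which was small for each gene named for Prdm1. The first gene for Prdm1, Txn1, was in 70.0% of cells with and 63.7% without it in BR14, followed by Ccl5 and Reep5. Ccl5 was in 40.8% against 29.8% in BR14, 31.5% against 26.2% in SC14 and 63.2% against 48.7% in SC50. Wdr83os, Ifi27l2a and Med10 came last. Among the factors, Bhlhe40 was in 68.5% of cells with and 55.3% without Prdm1 in BR14 (log2 odds 0.81, called). The pair had 0.33 in SC14 and 0.32 in SC50, and -1.17 in BR50 on 10 cells with Prdm1, none of them called. In BR14 its Mantel-Haenszel value over 10 strata of cell depth was 0.58, just short of 1.5-fold.

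The antibody counts gave a protein measure beside the transcripts. Within each library, the thinned cells were split at the tertiles of each raw antibody count into low, middle and high groups, and the share of cells with each factor was compared by the rule used for pairs. Over the 35 factor-by-library values with enough cells for each antibody, CXCR6 gave 8 higher and 11 lower in the high group, beside 2.71% and 1.8% of gene-by-library values over all genes. CD69 gave 5 higher and 8 lower beside 2.69% and 1.58%, and P2X7 gave 1 higher and 3 lower beside 1.32% and 0.858%. Cells of the high group were deeper in RNA: for CXCR6 in BR14 the median was 3433 UMIs in the low and 5107.5 in the high group, before thinning. Because low counts tie, the groups differ in size: for CD69 they held 3634, 2377 and 3139 cells in BR14 and 120, 35 and 95 in BR50. The CXCR6 antibody followed its own transcript, with log2 odds of Cxcr6 of 1.92 to 2.91 over the libraries, and P2X7 gave 0.92 to 2.92 for P2rx7. CD69 gave 0.30, -0.27, 0.15 and 0.39 for Cd69 in the order BR14, BR50, SC14 and SC50, so the CD69 groups differed little in the transcript.

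Eomes was scarce among cells with much P2X7 on their surface. In SC50 it was in 14.2% of the low group (11.4 to 17.3) and 1.5% of the high group (0.650 to 2.94). In BR14 the shares were 2.09% and 0.313%, in SC14 0.980% and 0.128%, and in BR50 10.2% and 2.17%. The log2 odds were -2.70, -2.08, -2.80 and -3.36 in the order BR14, BR50, SC14 and SC50, called in all but the second. The transcript P2rx7 was in 1, 0, 2 and 0 Eomes cells in that order, and in 5.02%, 5.98%, 9.09% and 7.07% of other cells. CXCR6 gave the same direction for Eomes, at -1.55, -0.98, -2.79 and -2.53, while CD69 gave -0.52, 0.78, -1.42 and -0.15.

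Eomes cells bound less antibody in all. Their median total of the 3 antibodies was 14 UMIs, against 29 in other cells, in BR14, 5 against 11 in BR50, 18.5 against 51 in SC14 and 14.5 against 31 in SC50. The part of total antibody capture in the lower P2X7 and CXCR6 counts was not tested beyond the values that follow. With each antibody taken as a share of the cell's antibody UMIs, the P2X7 log2 odds were -0.56, -2.23, -0.25 and -1.49 in the same order, with both day 14 calls lost, the CXCR6 values were -0.22, -1.60, -1.20 and -0.38 with no call left, and the CD69 values were 2.04, 2.51, 2.43 and 2.18, which turned the sign in all but BR50. Such shares sum to a fixed total over 3 antibodies, so a low share of one raises the others. With the groups formed within 10 strata of RNA depth, the P2X7 values were -2.53, -3.14, -2.71 and -2.37.

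Tcf7 and Id3 were less frequent with more CXCR6, the receptor that draws T cells into tissue. Tcf7 was in 34.7% of the low and 12.4% of the high group in BR14 and in 28.9% and 9.30% at day 50. In spinal cord it was in 28.5% and 12.2% at day 14 and in 26.5% and 18.3% at day 50. All 4 libraries were called, with log2 odds of -1.91, -1.92, -1.52 and -0.68; as a share of antibody UMIs the last was -0.55 and lost its call. Id3 was called lower in the 3 libraries with enough cells, from 3.92% to 1.53% in BR14, from 3.57% to 1.01% in SC14 and from 3.4% to 0.591% in SC50. As shares of antibody UMIs these log2 odds were -1.24, -0.15 and -1.52, and the calls in SC14 and SC50 were lost. For CD69, which opposes exit from tissue, Tcf7 gave -1.38, -1.11, -1.42 and -0.84, called in all but BR50. Id3 was called lower with CD69 in both spinal cord libraries, and Lef1 in both day 14 libraries (-0.80 and -0.68). As shares of antibody UMIs, 2 of these 7 CD69 calls were left, Tcf7 in SC50 (-0.82) and Id3 in SC14 (-0.88); Tcf7 gave -0.06 in BR14 and -0.53 in SC14, and Lef1 -0.29 and -0.25. Cells with these factors bound less antibody in all. The median total with and without Tcf7 was 20 and 33 UMIs in BR14, 4 and 12 in BR50, 37 and 54 in SC14 and 22 and 29 in SC50. For Id3 it was 21 and 29 in BR14, 35 and 52 in SC14 and 18 and 29 in SC50, and for Lef1 24 and 30 in BR14 and 45 and 53 in SC14.

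Bhlhe40 and Id2 went the other way. Bhlhe40 was in 40.6% of the low and 66.3% of the high CXCR6 group in BR14, in 37.1% and 61.6% at day 50, and in 42.0% and 57.1%, then 37.2% and 60.6%, in SC14 and SC50. It was also more frequent with CD69 in 3 libraries, at 36.2% against 61.3% in SC50, and with P2X7 in SC50, at 39.2% against 62.1%. Id2 was called higher with CXCR6 in 3 libraries, at 46.7% against 72.4% in BR14, and with CD69 in BR14 and SC50. Cells with Bhlhe40 bound more antibody in all, with a median of 35 UMIs against 23 in BR14 and 38 against 21 in SC50. As shares of antibody UMIs, Bhlhe40 turned to -0.47 with CD69 and -1.02 with P2X7 in BR14, to -0.21 with CXCR6 in BR50 and to -0.11 with P2X7 in SC50, and Id2 to -0.31 with CD69 in BR14.

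The other factors followed the antibodies little. Prdm1 was called once, more frequent with CXCR6 in BR14 (2.84% against 5.09%), and Bach2 once, less frequent there (2.32% against 0.732%). Runx3 was called in none of its 12 values, and its log2 odds lay between -0.47 and 0.38. Zfp683 was more frequent in the high CXCR6 group in both day 14 libraries, at 10 against 1 cells in brain and 13 against 7 in spinal cord, and neither was called.

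**Figure D5:**
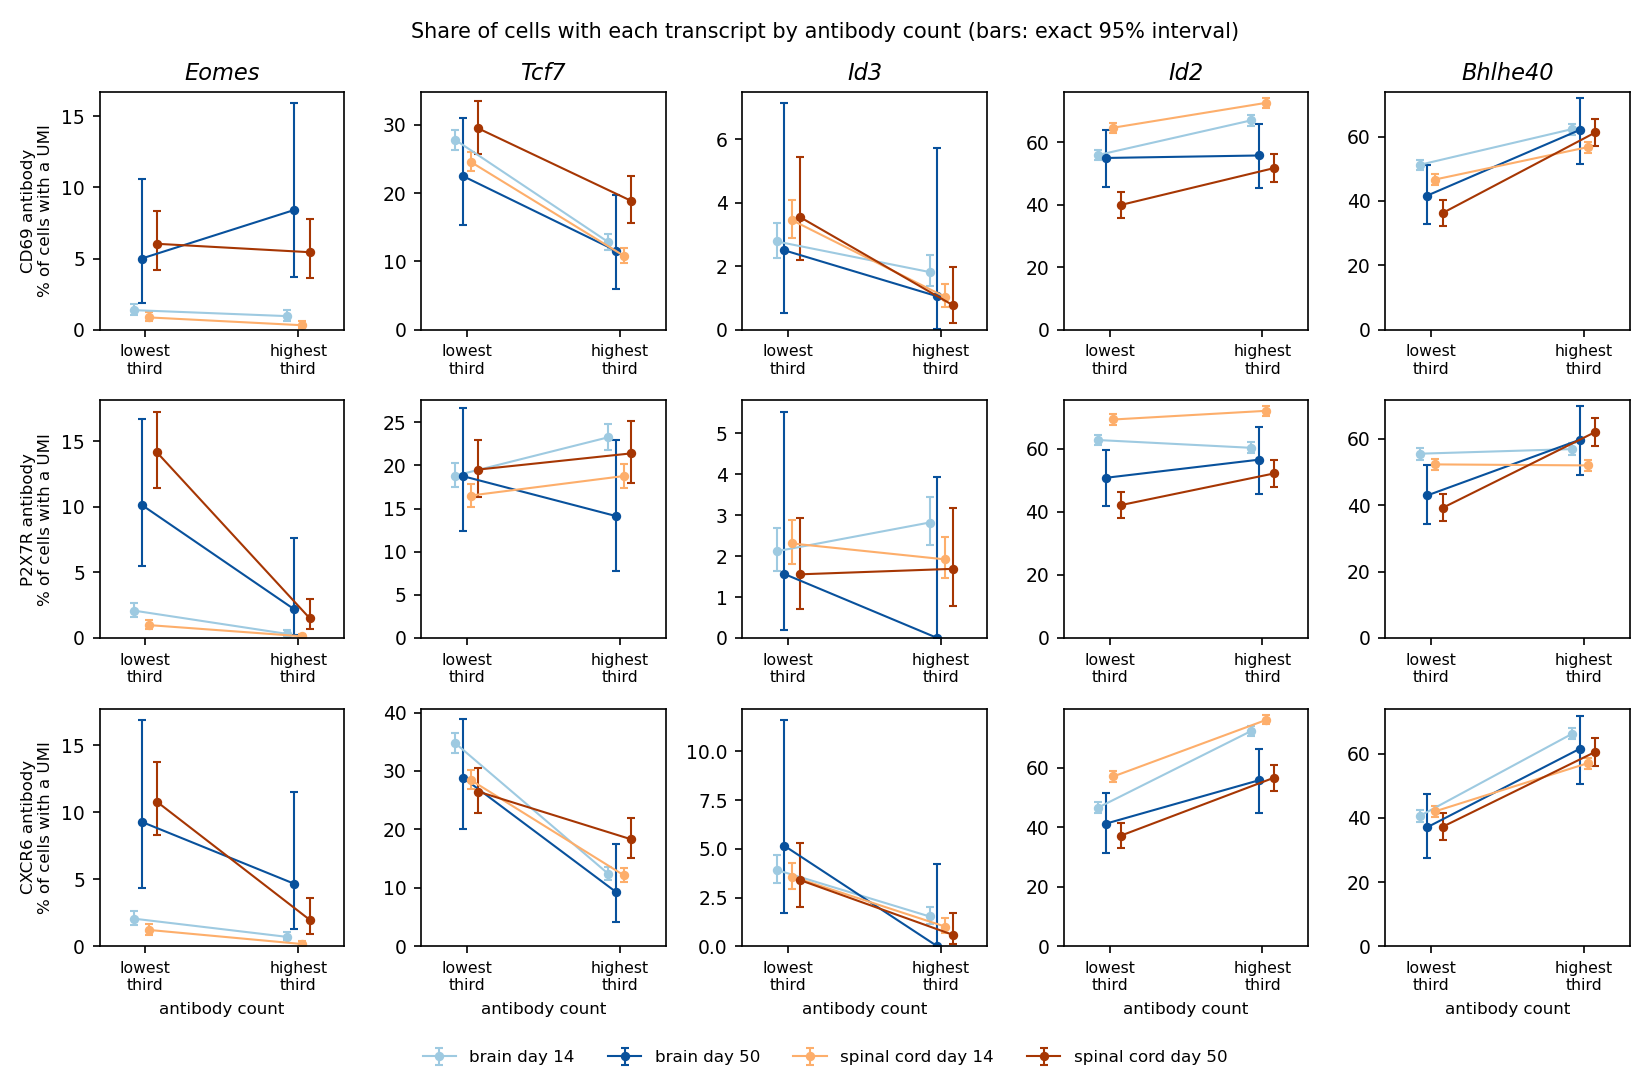
Share of thinned cells with Eomes, Tcf7, Id3, Id2 and Bhlhe40 in the low and high groups of each raw antibody count, in each library with exact 95% intervals. Eomes falls with P2X7R from 0.980% to 14.2% in the low to 0.128% to 2.17% in the high group, Tcf7 falls with CXCR6 in all 4 libraries, and Bhlhe40 rises with CXCR6 in all 4.

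Genes linked to these factors were read from lists of known partners and targets. These lists were chosen with earlier results of these data known. Their counts are therefore descriptions, and the all-gene shares beside them make no test of the lists. Over all compared genes, 7.33% were called higher and 3.31% lower with time in brain and 13% and 10.4% in spinal cord, and the counts of each list stand beside these shares. Of 18 cytotoxic and memory genes linked to Eomes, 5 were called higher and 3 lower at day 50 in brain (median relative log2 ratio -0.27), and 6 higher and 5 lower in spinal cord (0.28). Gzmk was at 56.5 and 118 CPM in brain and at 26.7 and 169 CPM in spinal cord, with relative log2 ratios of 1.20 (0.94 to 1.45) and 3.0 (2.88 to 3.12). Ccl5 gave 0.81 and 2.20. Gzma, another granzyme, went down, from 77.8 to 5.94 CPM in brain and from 60.2 to 6.25 CPM in spinal cord (-3.57 and -2.94). Il10, an inhibitory cytokine, was called higher in spinal cord (2.01), at 0.927 and 2.96 CPM, and not in brain (-0.31). The list did not move as 1 group.

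Of 15 stem and central memory genes linked to Tcf7 and Lef1, 5 were called higher and 1 lower at day 50 in brain (median 0.32) and 8 higher and 0 lower in spinal cord (1.14). Izumo1r, the folate receptor FR4, gave 0.89 and 2.43, Cd27, a costimulatory receptor, 0.66 and 2.04, Xcl1, a chemokine, 0.70 and 1.86, and Ccr7, the lymph node homing receptor, 1.54 and 1.75. These rose while Lef1 was lower and Tcf7 was not called. In SC14 against BR14, where 6.4% of all genes were higher and 6.24% lower, 0 of the 15 were higher and 10 lower (median -0.78). At day 50, beside 2.24% and 4.76% of all genes, 2 were higher and 3 lower (0.07).

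Of 16 residency genes linked to Runx3, Prdm1, Zfp683 and Bhlhe40, 15 were compared; 10 were called higher and 0 lower at day 50 in brain (median 0.75) and 6 higher and 0 lower in spinal cord (0.40). Vps37b was at 99.7 and 261 CPM in brain and at 41.2 and 288 CPM in spinal cord (1.52 and 3.13), and Rgs2 (1.06 and 2.70) and Rgs1 (0.93 and 1.3), regulators of G protein signalling, and the chemokine receptor Ccr8 (2.02 and 0.64) went the same way. Between tissues, 5 were higher and 3 lower in SC14 (0.09) and 1 higher and 2 lower at day 50 (-0.03). Runx3, Prdm1 and Bhlhe40 were called in none of these comparisons, while Zfp683 was called higher at day 50 in both tissues, in brain on 4 UMIs.

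Of 34 partner and opposing transcription factors, 8 were called higher and 4 lower with time in brain (median 0.04) and 7 higher and 8 lower in spinal cord (0.01), beside 7.33%, 3.31%, 13% and 10.4% of all genes in that order. Tox, a factor of persistently stimulated T cells, gave 1.09 and 1.96, and Ikzf2, known as Helios, 1.43 and 1.85. Klf2, which maintains exit receptors, was lower in spinal cord than in brain on both days (-1.48 and -2.0). Among 10 effector cytokine genes linked to Bhlhe40 and Prdm1, 3 were higher and 2 lower in brain (-0.10) and 4 higher and 3 lower in spinal cord (-0.11). Il17a was at 182 and 503 CPM in brain and 94.1 and 120 CPM in spinal cord (1.60 and 0.69), Il22 fell in brain (-3.94) and gave -0.26 in spinal cord, and Il17f fell in brain (-2.69) and rose in spinal cord (2.62).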

How the data were processed

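Single-cell RNA and antibody tags were measured in 4 libraries, 1 per group. The authors deposited raw UMI counts per gene and antibody for barcodes already called as cells, per the file headers. Cell Ranger 6.1.1 and the mm10 build are named in the submitters' processing notes. In the feature lists, the identifiers of 2 antibodies (P2X7R and CXCR6) differ from their names (CD3 and CD16); identifiers were taken as correct, since those proteins are the ones in the labels. The 10 factors and the gene lists were chosen with earlier results of these data known.

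From the counts, cells below 500 genes or above 10% mitochondrial UMIs were dropped, and UMIs were summed per library. Ratios carry exact conditional binomial 95% intervals and are centred on the median of genes with at least 10 UMIs in the 2 libraries. Intervals and floors cover counting error only; 3 counts correspond to 0.0592 to 2.55 CPM. Shares come from cells thinned to 2000 UMIs, and odds ratios add 0.5 to each count. Scrublet doublet calls were kept, with their removal in the day 50 libraries as an alternative. Listed genes were named by the interval farthest from 0 (up to 4 per list), and companions by the smallest difference in share over libraries with at least 50 positive cells (the top 3 and bottom 3). Marker genes described in Eomes cells came from the marker lists. A result on a listed gene is not reported here. The scripts were tested on simulated data. Python 3.11.15, numpy 2.4.6, scipy 1.17.1, scanpy 1.11.5 and matplotlib 3.10.9 were used. Other cell filters, thinning depths, centring and antibody scalings were tried. With 1 library per group, no test between conditions was made.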

Additional observations from a re-analysis of the deposited data

Results flagged for a closer look

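Some values had opposite signs in 2 tissues or at 2 days, and the difference between them was not tested. Il17f, a Th17 cytokine gene, had a relative log2 ratio of day 50 to day 14 of -2.69 in brain and 2.62 in spinal cord, and of spinal cord to brain of -2.52 at day 14 and 2.77 at day 50. Il22 gave -1.60 at day 14 and 2.06 at day 50 for spinal cord against brain. Bach2 and Id2 had log2 odds of -0.85 in BR14, -0.75 in SC14 and 2.0 in SC50, the last from 19 cells with Bach2.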

How the results depend on the processing

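No paired analysis was possible because there is a single library for every group. Eomes kept its direction and call under every alternative run for the comparisons with time and for the tissues at day 14. The count of factors higher at day 50 in brain was 1 without centring, with the stricter cell filter (1000 genes, 5% mitochondrial UMIs), and with cells thinned before summing. The count lower in brain was 0 without the 2 richest cells and 0 at a fold threshold of 2. In spinal cord the count lower was 2 without centring and 0 at a fold threshold of 2. Between tissues at day 14, the count higher was 1 without centring, with all barcodes and without the 2 richest cells, and the count lower was 2 with the stricter filter, thinned before summing, without the 2 richest cells and without cycling cells. At day 50 it was 1 with the stricter filter. Without centring, 47.5% of calls over all genes were higher with time in brain, beside 68.9% with it, 22.1% beside 55.5% in spinal cord and 80.1% beside 50.6% between tissues at day 14. Pairs found together numbered 3 at 1000 UMIs. Without cells with a cycling gene all 5 kept their call, and Id2 with Bhlhe40 and Prdm1 with Bhlhe40 were also found together. Without the 10% of cells with most UMIs, 3 of the 5 kept it, and Prdm1 with Bhlhe40 was also found together. Of the 5 pairs found apart, 3 kept their call at 1000 UMIs, where Bach2 and Id2 were also found apart. For CD69, values more frequent numbered 3 as shares of antibody UMIs, 2 when split at the median, 2 within depth strata and 2 at 1000 UMIs, and values less frequent numbered 2 as shares and 5 within strata. For P2X7, values more frequent numbered 5 as shares, 4 within strata and 2 at 1000 UMIs. For CXCR6, values less frequent numbered 5 as shares. The depth strata were chosen after seeing the data. As shares, log2 odds turned for Eomes by CD69 (2.04 in BR14, 2.43 and 2.18 in SC14 and SC50), Id2 by CD69 (-0.31) and Bhlhe40 by CD69 (-0.47) and P2X7 (-1.02) in BR14, Bhlhe40 by P2X7 in SC50 (-0.11) and Bhlhe40 by CXCR6 in BR50 (-0.21). For all of these the cause was not tested. The day 50 brain library, with 348 cells, limits what could be detected there.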
